A study of Mus musculus with 9 samples.

Results

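The genes described here are 46 genes of 7 families of RNA-binding proteins that take part in pre-mRNA splicing, measured in the mouse nucleus accumbens after repeated cocaine, repeated cocaine followed by withdrawal, or repeated saline. They were chosen by name: symbols of the SR proteins (Srsf), the heterogeneous nuclear ribonucleoproteins (hnRNPs), and the CELF, MBNL, RBFOX, NOVA and PTBP families, with a mean level of at least 1 RPKM (reads per kilobase of gene model, scaled to the depth of the lane) over all lanes. Of 21423 genes in the table, 47 had such a symbol, and all but Mbnl3, at a mean of 0.340 RPKM, passed the level. The 46 were 11 SR genes, 20 hnRNP genes, 6 CELF, 2 MBNL, 3 RBFOX, 2 NOVA and 2 PTBP genes. Rod1, an earlier symbol of Ptbp3, was outside the name patterns and is not counted. No measured value other than the minimum level entered the choice.

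Exons and the introns beside them carry short sequence elements that these proteins bind. SR proteins mostly bind exonic enhancers and promote inclusion of an exon, and many hnRNPs bind silencers and oppose it, so that the balance between them helps set which exons enter the mature mRNA. CELF, MBNL, RBFOX, NOVA and PTBP proteins direct tissue-specific and developmental exon choices. In brain, Rbfox3 is the neuronal nuclear antigen NeuN, Nova1 and Nova2 act on synaptic transcripts, and a switch from Ptbp1 to Ptbp2 accompanies neuronal differentiation.

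The tissue came from adult male C57BL/6 mice, aged 2 to 5 months, and is the ventral part of the striatum, where medium spiny neurons are the main cell type. Cocaine mice received cocaine intraperitoneally (10 or 20 mg/kg; the labels tie neither dose to a library) every day for 7 days and were killed 24 h after the final injection. Withdrawal mice also had 7 days of cocaine and were killed 8 days after it, and saline mice received 10 ml/kg saline on the same schedule as the cocaine mice. RNA of 8 mice was pooled into 1 library per group, and every library was run in 3 lanes. Lanes are technical runs, so the errors below are sequencing errors of 1 library, mice were not measured separately, and no p-value for an effect of treatment can be had. Library totals were 24219333 for cocaine, 19452882 for withdrawal and 26006605 for saline, which gave each member between 433 and 30603 reads in a library.

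Splicing factor transcripts were abundant. The 46 genes had a median level of 50.8 RPKM, against 9.24 RPKM over the 14051 genes at 1 RPKM or more that were compared, and 43 of them lay above 9.24 RPKM. Srsf5, an SR protein that binds exonic enhancers, was the highest of all, with 239.7, 231.1 and 227.5 RPKM in the cocaine lanes, 237.4, 258.6 and 228.5 RPKM in the withdrawal lanes, and 262.1, 260.4 and 268.3 RPKM in the saline lanes. Srsf2, which encodes the nuclear speckle protein SC35, was next at a mean of 178.9 RPKM over the 9 lanes.

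Among the hnRNPs, the A/B-type genes Hnrnpa3 and Hnrnpa2b1, at 152.2 and 124.2 RPKM, and Hnrnph1, which binds runs of G, at 130.2 RPKM, led the family. Celf4 led the CELF genes at 116.9 RPKM and Rbfox3 the RBFOX genes at 87.7 RPKM. Mbnl2 (19.9 RPKM), Nova2 (17.7 RPKM) and Ptbp2 (15.5 RPKM) led families of lower level, and Hnrpll, an hnRNP L relative, was the lowest member at 4.39 RPKM. Neighbours in this order were often closer than their lanes: the 9-lane means of Ptbp2 and Ptbp1 were 15.5 and 13.8 RPKM, and their cocaine lanes (15.2 to 16.1 and 13.7 to 15.7 RPKM) overlapped.

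**Figure D1:**
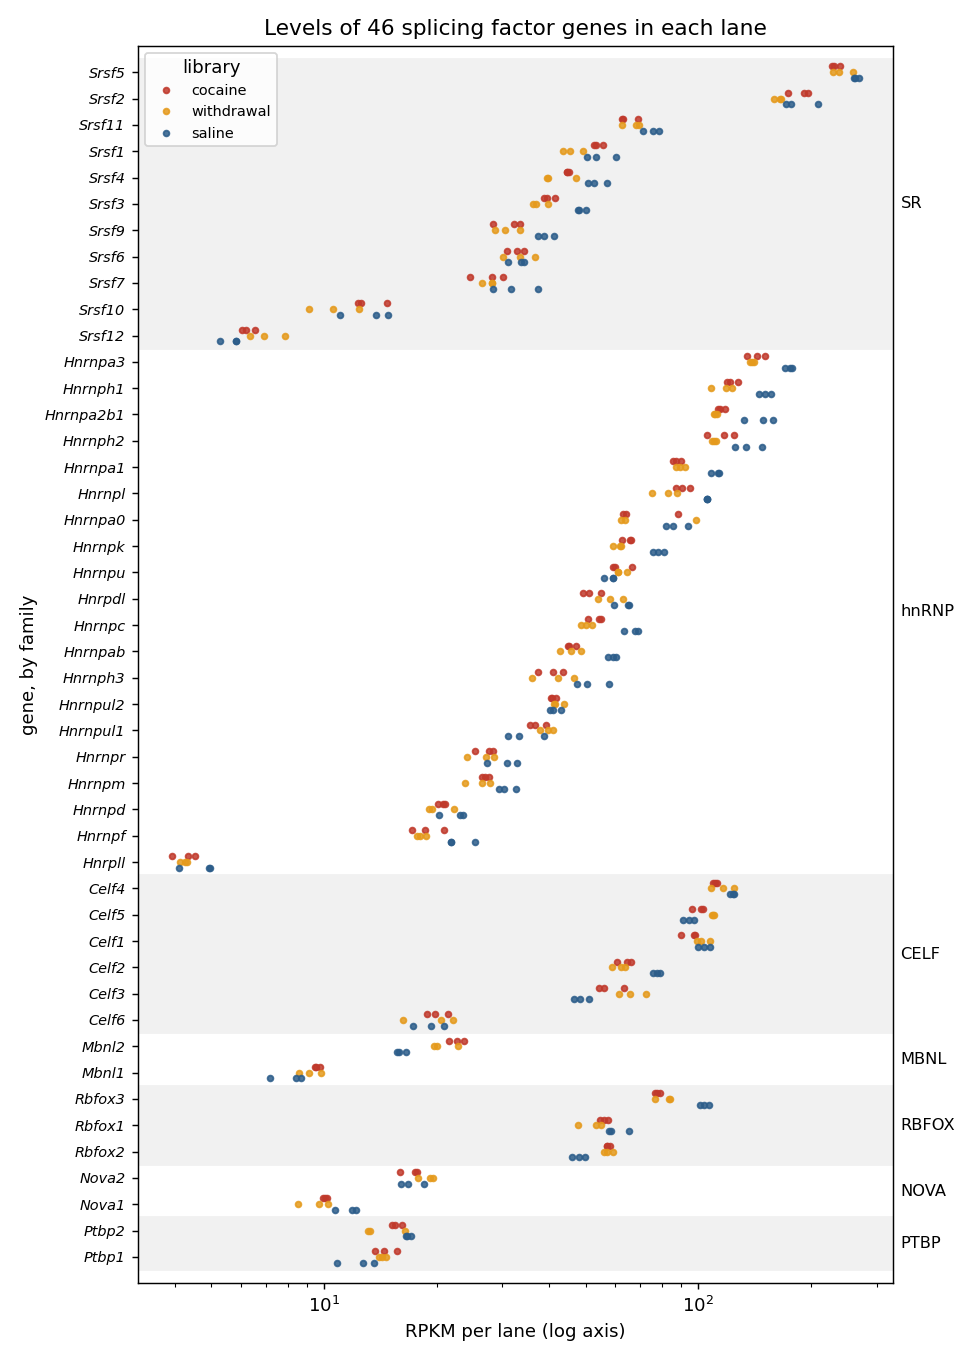
RPKM of each of the 46 genes (rows, grouped by family and ordered by mean level) in every lane, on a log axis, with the cocaine lanes above the withdrawal lanes and the saline lanes in each row. Levels ran from about 4 RPKM for Hnrpll to over 200 RPKM for Srsf5, and the 3 colours lay close together in every row.

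The first comparison asks whether repeated cocaine altered these transcripts. Genes count as called where 2 libraries were at least 1.5 times apart, on the log2(RPKM + 0.5) scale used for all differences, with every lane of one above or below every lane of the other. None of the 46 was called between cocaine and saline, where 2.93% of all compared genes were called higher and 2.41% lower. None was called between withdrawal and saline, where the shares of all genes were 3.96% higher and 3.37% lower. The differences ran from -0.41 (Rbfox3) to 0.48 (Mbnl2) in cocaine and from -0.41 (Hnrnpc) to 0.45 (Celf3) in withdrawal, so that all 46 stayed inside the size limit of 0.585.

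Below that limit, many members were lower than in saline by small amounts that exceeded the lane spread. In cocaine, 25 of 46 had all lanes below all saline lanes, against 23.9% of compared genes, and 6 had all lanes above, against 18.3%. In withdrawal the counts were 25 lower, against 25.6% of compared genes, and 7 higher, against 18.6%. The median difference of the members was -0.17 in cocaine and -0.22 in withdrawal, and that of all compared genes was -0.05 and -0.06. Both comparisons use the same saline library, so they are not independent of each other. In pooled bulk tissue, fewer cells of a type and less RNA per cell cannot be told apart.

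Members were deeply covered, and their lanes were less spread than those of all compared genes. For members the lane SD on the log2 scale had a median of 0.063 in cocaine, 0.089 in withdrawal and 0.075 in saline. For all compared genes it was 0.119, 0.130 and 0.114. Whether this made the lanes of members separate more readily was not tested. Among the 3895 genes at 20 RPKM or more, a limit chosen after seeing the data, 23 of the 36 members left were lower in cocaine, beside 46.8% of such genes, and 23 were lower in withdrawal, beside 47.8%. The median of these 36 members was -0.22 in cocaine and -0.24 in withdrawal, beside -0.14 and -0.15 over all such genes. Relative to such genes it was thus -0.08 in cocaine and -0.09 in withdrawal.

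The scaling of the lanes moved these directions. RPKM summed over all genes was 362900 ± 3050 in cocaine, 361100 ± 2162 in withdrawal and 406500 ± 2796 in saline (SD, 3 lanes each), and the 46 members together held 0.745% ± 0.006 of that sum in cocaine, 0.742% ± 0.009 in withdrawal and 0.749% ± 0.019 in saline. These shares differed by less than the spread between lanes. With every lane set to the same sum, as in TPM, the median of all genes moved to 0.10 in cocaine and 0.10 in withdrawal, the members' median to -0.01 in cocaine and -0.05 in withdrawal, and 8 members were lower and 12 higher than saline in cocaine, and 12 lower and 13 higher in withdrawal. The shares of all genes with equal sums were 10.1% lower and 32.2% higher in cocaine, and 11.9% lower and 32.1% higher in withdrawal. Relative to the median of all genes, the members' median was -0.12 in cocaine and -0.16 in withdrawal as deposited, and -0.11 in cocaine and -0.15 in withdrawal with equal sums. The order of the genes among themselves does not depend on such a scaling. By family, the hnRNP share was 0.342% in cocaine, 0.338% in withdrawal and 0.363% in saline, with all cocaine and withdrawal lanes below all saline lanes. The CELF share was 0.123% in cocaine, 0.132% in withdrawal and 0.115% in saline, and the MBNL share 0.00889% in cocaine, 0.00833% in withdrawal and 0.00595% in saline, both with all cocaine and withdrawal lanes above all saline lanes, and the SR shares overlapped.

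Differences against saline also followed gene model length. Over all compared genes, Spearman's rho between the difference and the length was 0.46 in cocaine and 0.42 in withdrawal, and over the 46 members it was 0.39 and 0.36; all points of a comparison share the same 2 libraries. The members' median length was 3956 bp, against 3531 bp over all compared genes. After subtracting the median of the genes of like length (20 bins), 23 members had cocaine lanes below the saline lanes and 6 above, 19 and 5 of which had been so before, and 20 had withdrawal lanes below and 7 above, 17 and 6 of which had been so before. On that scale 16.3% of all genes were lower and 16.3% higher in cocaine, and 18.0% lower and 18.7% higher in withdrawal. The members' median was then -0.15 in cocaine and -0.16 in withdrawal. With both the length centring and the limit of 20 RPKM, 19 of 36 members were lower in cocaine, beside 20.3% of such genes, and 18 were lower in withdrawal, beside 23.1%.

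**Figure D2:**
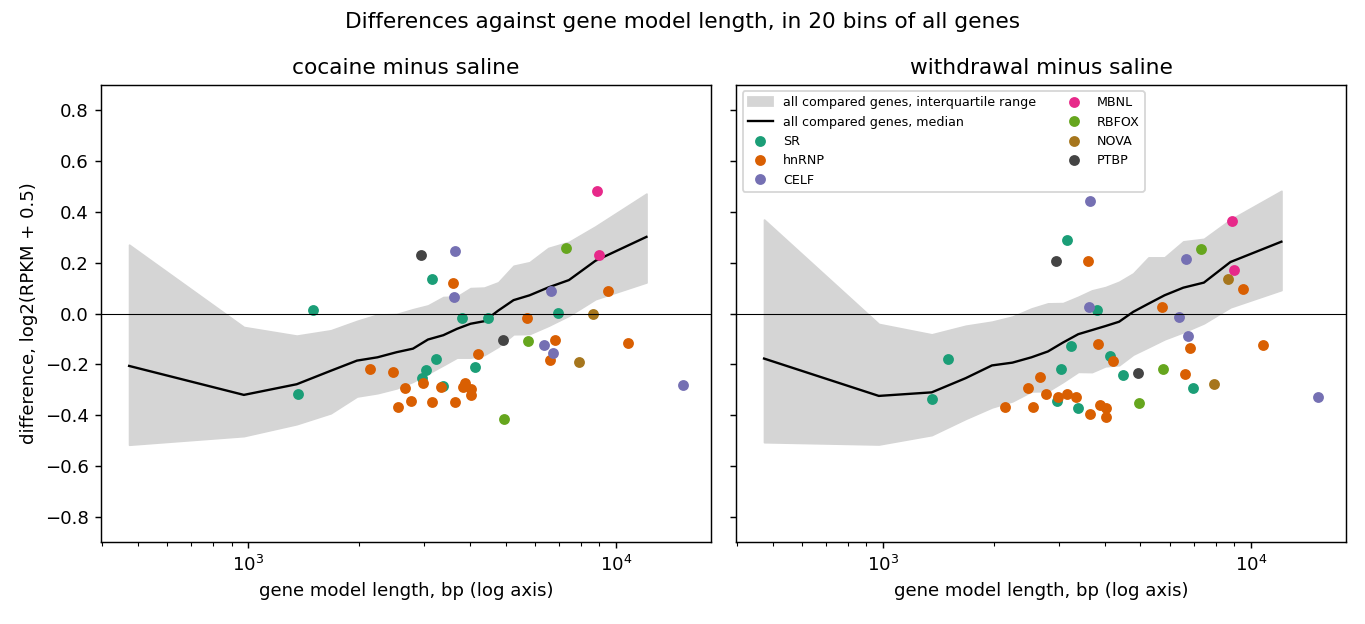
Difference from saline on the log2(RPKM + 0.5) scale (vertical axis) against gene model length on a log axis, for cocaine (left) and withdrawal (right); coloured points are the 46 members by family, and the black line and grey band are the median and the interquartile range of all compared genes in 20 length bins. The line rises with length in both panels, and most hnRNP points lie below it.

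Most hnRNP genes were lower than in saline. In cocaine 13 of the 20 genes had lanes below saline and none had lanes above, with a median of -0.27, beside 23.9% of all compared genes with lanes below and 46.8% of those at 20 RPKM or more. In withdrawal 12 had lanes below and 1 above, with a median of -0.31, beside 25.6% of all genes with lanes below and 47.8% of those at 20 RPKM or more. After length centring, where 16.3% of all genes were lower in cocaine and 18.0% in withdrawal, the counts were 12 lower and none higher in cocaine and 12 lower and 1 higher in withdrawal, with medians of -0.21 in cocaine and -0.20 in withdrawal. With equal sums the medians were -0.11 in cocaine and -0.13 in withdrawal, below 0 but with 3 members higher and 4 lower in cocaine, and 3 higher and 9 lower in withdrawal, beside the shares of all genes of 32.2% higher and 10.1% lower in cocaine and 32.1% higher and 11.9% lower in withdrawal. The summed level of the 20 genes was 1241 ± 11.6 RPKM in cocaine, 1219 ± 21.9 RPKM in withdrawal and 1476 ± 28.3 RPKM in saline (SD, 3 lanes).

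Hnrnpa1, a shuttling protein that represses exons, had 87.1, 85.6 and 89.9 RPKM in the cocaine lanes, 87.1, 89.6 and 92.2 RPKM in the withdrawal lanes, and 108.0, 113.7 and 113.1 RPKM in the saline lanes. All cocaine and withdrawal lanes lay below all saline lanes, by -0.35 ± 0.03 in cocaine and -0.31 ± 0.03 in withdrawal (SE from lanes). Hnrnpa1 and other hnRNP A/B genes have processed pseudogenes in the genome, and how the authors assigned reads between such copies is not given in the sources used here, so their levels are uncertain.

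Hnrnpab had 47.0, 45.1 and 44.9 RPKM in the cocaine lanes, 48.5, 42.9 and 45.6 RPKM in the withdrawal lanes, and 60.3, 59.3 and 57.4 RPKM in the saline lanes, a difference of -0.37 ± 0.03 in cocaine and -0.37 ± 0.06 in withdrawal. Hnrnpa2b1, which also directs mRNA into dendrites, had 114.2, 117.6 and 112.7 RPKM in the cocaine lanes, 111.2, 112.1 and 110.0 RPKM in the withdrawal lanes, and 158.7, 132.3 and 148.7 RPKM in the saline lanes. Its saline lanes were spread more widely than those of Hnrnpab but did not reach the other libraries, and the differences were -0.35 ± 0.08 in cocaine and -0.39 ± 0.08 in withdrawal.

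Hnrnpc, which binds uridine tracts, had the lowest withdrawal difference of all members: 50.9, 54.3 and 55.0 RPKM in the cocaine lanes, 51.9, 48.5 and 50.2 RPKM in the withdrawal lanes, and 63.3, 67.9 and 69.0 RPKM in the saline lanes, or -0.32 ± 0.05 in cocaine and -0.41 ± 0.05 in withdrawal. Hnrnpk, a poly(C)-binding protein, had 65.5, 62.7 and 66.2 RPKM in the cocaine lanes, 59.2, 61.7 and 62.1 RPKM in the withdrawal lanes, and 75.8, 78.3 and 81.2 RPKM in the saline lanes. Its 3 libraries did not overlap in any lane, with saline highest and withdrawal lowest. Hnrnpl, which binds CA repeats, Hnrnph1 and Hnrnpa3 differed from saline by -0.22, -0.29 and -0.29 in cocaine and by -0.37, -0.37 and -0.33 in withdrawal, with no lane overlapping. After length centring Hnrnpl was at -0.05 in cocaine, with lanes overlapping, and at -0.17 in withdrawal, and Hnrnph1 and Hnrnpa3 kept lanes below saline in both.

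Several hnRNPs stood apart from the rest. Hnrnpu, the scaffold attachment factor A, and the 2 genes named after it, Hnrnpul1 and Hnrnpul2, differed from saline by 0.09, 0.12 and -0.02 in cocaine and by 0.09, 0.21 and 0.02 in withdrawal; of these only Hnrnpu in withdrawal had lanes apart from saline, and it lay below the genes of like length (-0.11 after length centring). Hnrpdl, a relative of the AU-rich element binding protein hnRNP D, had 51.2, 49.2 and 55.0 RPKM in the cocaine lanes, 62.9, 54.1 and 58.0 RPKM in the withdrawal lanes, and 64.8, 65.4 and 59.6 RPKM in the saline lanes. Cocaine lay below saline (-0.29 ± 0.06), and withdrawal overlapped both other libraries. Hnrnpa0 varied most between lanes of 1 library: 88.1, 64.2 and 63.1 RPKM in the cocaine lanes, 98.4, 62.3 and 63.8 RPKM in the withdrawal lanes, and 93.7, 85.5 and 82.1 RPKM in the saline lanes, so its libraries overlapped.

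The 100 bases before the RefSeq transcription start are shown, on the gene's strand, for Hnrnpab and Hnrnpa1, the 2 hnRNP genes with the lowest cocaine differences, and for Hnrnpc, the one with the lowest withdrawal difference. Windows were searched on both strands for the GC box GGGCGG, the CCAAT box CCAAT, the TATA box TATAAA and the ETS-type motif CCGGAAG, which do not overlap in these windows, and capitals mark any match. They are from the GRCm38.p6 build and lie at chr11:51606882-51606981 (minus strand) for Hnrnpab, chr15:103240297-103240396 (plus strand) for Hnrnpa1 and chr14:52104022-52104121 (minus strand) for Hnrnpc.
Hnrnpab: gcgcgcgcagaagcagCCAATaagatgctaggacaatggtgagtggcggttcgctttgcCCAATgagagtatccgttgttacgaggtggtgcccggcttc
Hnrnpa1: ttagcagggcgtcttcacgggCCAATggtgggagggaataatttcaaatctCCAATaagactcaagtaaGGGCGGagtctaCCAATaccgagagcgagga
Hnrnpc: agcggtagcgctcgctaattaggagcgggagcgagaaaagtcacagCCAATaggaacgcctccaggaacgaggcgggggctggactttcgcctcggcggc
The CCAAT box was in all of these windows, 2 times for Hnrnpab, 3 times for Hnrnpa1 and 1 time for Hnrnpc, and in 13 of the 27 listed promoters (48.1%) of the 18 hnRNP genes that had one. For the 11 SR genes it was in 2 of 14 promoters (14.3%), where the GC box was in 13 (92.9%). In the 27 hnRNP promoters the GC box was in 12 (44.4%). Over all 32851 promoters listed, 18.9% held the CCAAT box, 24.7% the GC box, 5.56% the TATA box and 4.52% the ETS-type motif in the same window. A match is a run of letters and was not tested for binding.

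SR genes lay on both sides of saline, and more below than above. In cocaine 5 of 11 had lanes below saline (23.9% of all compared genes, and 46.8% of those at 20 RPKM or more) and 1 above, with a median of -0.18. In withdrawal 8 had lanes below (25.6% of all compared genes, and 47.8% at 20 RPKM or more) and 1 above, with a median of -0.22. After length centring, 3 were lower and 2 higher in cocaine, beside 16.3% lower and 16.3% higher over all genes, and 2 were lower and 1 higher in withdrawal, beside 18.0% lower and 18.7% higher, so the withdrawal counts were then near those of all genes or below them. The medians were then -0.09 in cocaine and -0.10 in withdrawal, and with equal sums they were -0.02 in cocaine and -0.05 in withdrawal. The SR genes include the shortest gene model, Srsf9 (1360 bp), whose differences of -0.32 in cocaine and -0.34 in withdrawal became -0.04 in cocaine and -0.03 in withdrawal against genes of like length.

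Srsf3, the smallest SR protein and an adaptor of mRNA export, had the lowest difference from saline among SR genes in withdrawal. It had 38.7, 39.4 and 41.5 RPKM in the cocaine lanes, 36.1, 36.9 and 39.6 RPKM in the withdrawal lanes, and 47.9, 47.7 and 50.2 RPKM in the saline lanes. All cocaine and withdrawal lanes lay below all saline lanes, by -0.28 ± 0.04 in cocaine and -0.37 ± 0.05 in withdrawal, and they did so after length centring too (-0.20 and -0.29). Srsf5 differed by -0.18 ± 0.03 in cocaine and -0.13 ± 0.05 in withdrawal, with no lane overlapping, and by -0.09 in cocaine and -0.05 in withdrawal after length centring, where its withdrawal lanes overlapped saline. Srsf7, an SR protein with a zinc knuckle, had lanes spread from 24.6 to 30.1 RPKM in cocaine, 26.4 to 28.2 RPKM in withdrawal and 28.3 to 37.3 RPKM in saline, and its cocaine lanes overlapped the saline lanes, while the highest withdrawal lane and the lowest saline lane nearly met.

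Srsf1, the founding SR protein, had 55.6, 53.2 and 52.6 RPKM in the cocaine lanes, 49.1, 43.4 and 45.4 RPKM in the withdrawal lanes, and 60.2, 53.2 and 50.3 RPKM in the saline lanes. Its cocaine lanes overlapped saline (-0.02 ± 0.08), and its withdrawal lanes lay below both saline (-0.24 ± 0.09) and cocaine. Srsf2 had 196.2, 173.6 and 192.1 RPKM in the cocaine lanes, 165.9, 165.7 and 159.4 RPKM in the withdrawal lanes, and 208.9, 177.3 and 171.2 RPKM in the saline lanes. Withdrawal was again the lowest library. The Srsf2 gene model is short (1497 bp), and after length centring its difference from saline was 0.29 in cocaine, with all lanes above saline, and 0.13 in withdrawal, with lanes overlapping.

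Srsf12, a low-level SR gene, was the 1 SR member with lanes above saline as deposited, with 6.21, 6.56 and 6.05 RPKM in the cocaine lanes, 6.92, 6.35 and 7.86 RPKM in the withdrawal lanes, and 5.84, 5.83 and 5.29 RPKM in the saline lanes. Its differences were 0.14 ± 0.05 in cocaine and 0.29 ± 0.09 in withdrawal. Srsf10, a repressor of splicing when it is dephosphorylated, had 14.7, 12.6 and 12.3 RPKM in the cocaine lanes, 12.4, 9.15 and 10.6 RPKM in the withdrawal lanes, and 13.8, 14.8 and 11.0 RPKM in the saline lanes. Its lanes overlapped in all comparisons.

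**Figure D3:**
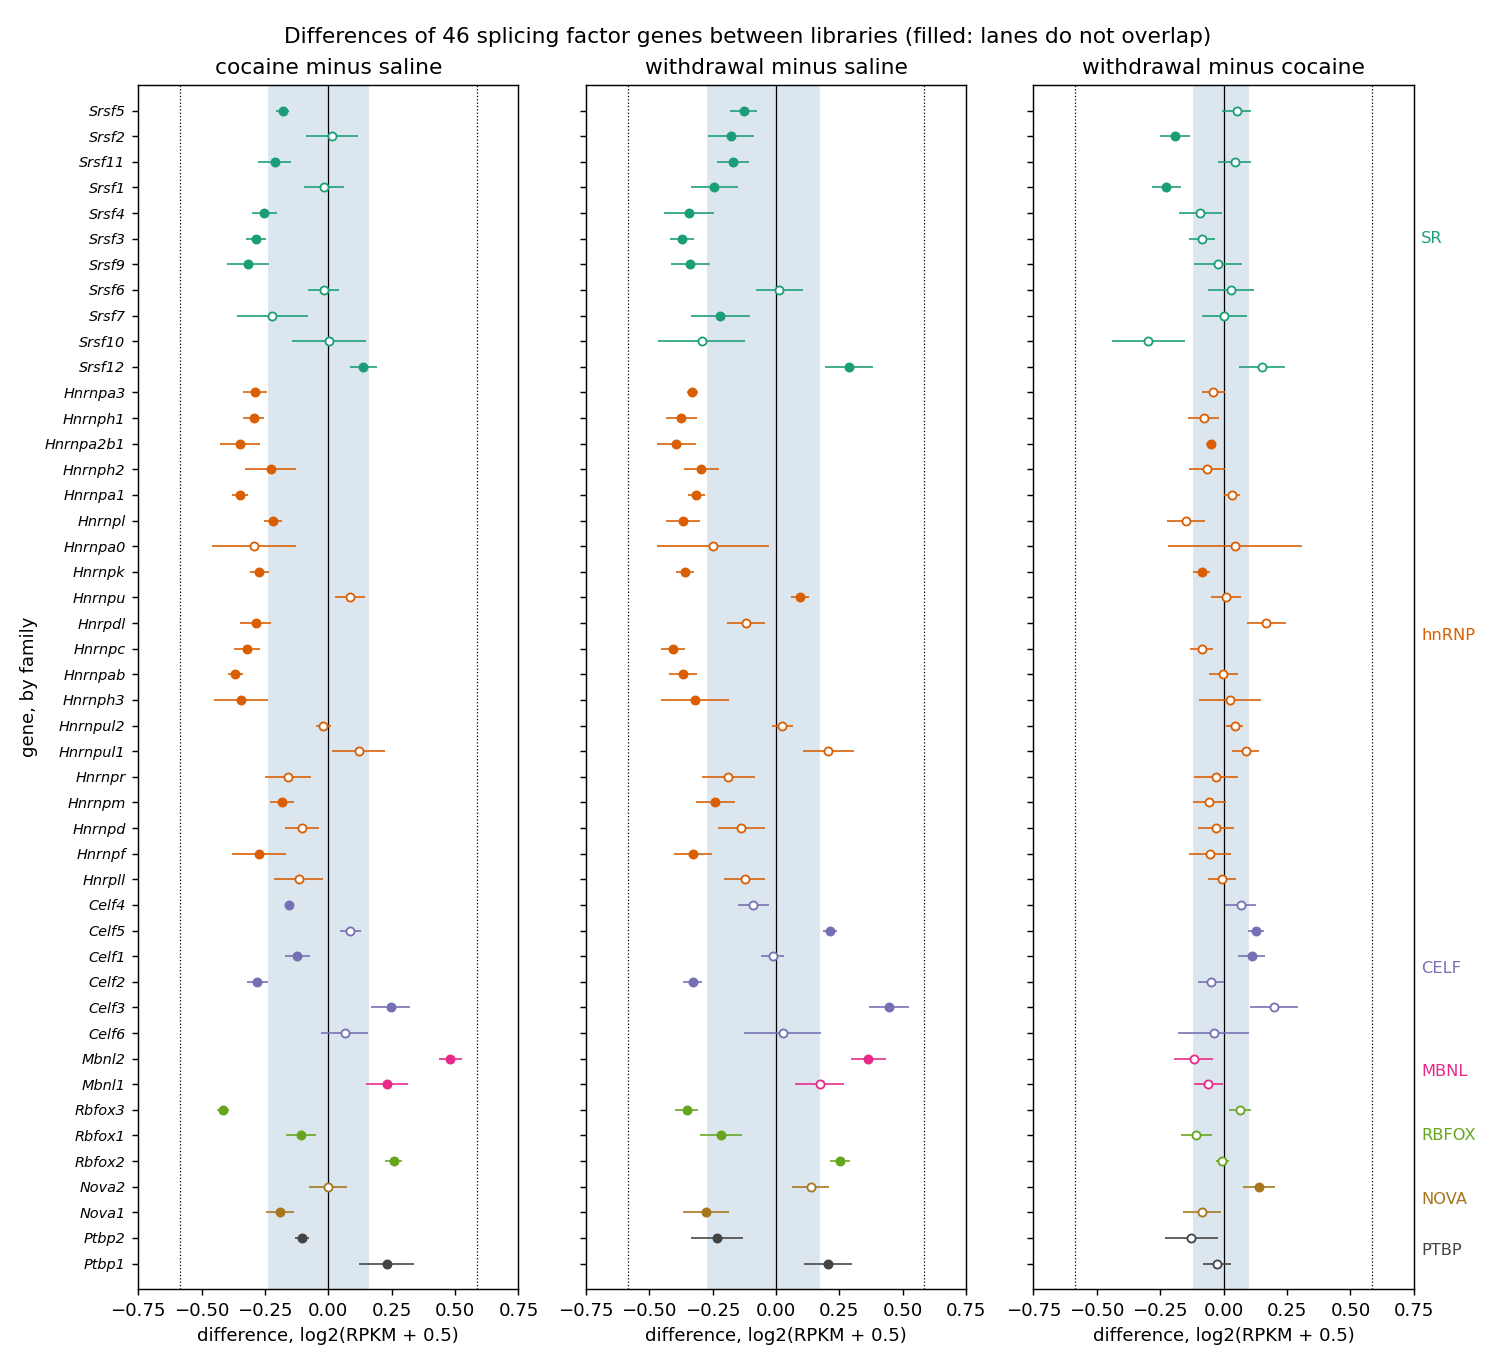
Difference of each of the 46 genes on the log2(RPKM + 0.5) scale with its standard error from 3 lanes per library, for cocaine minus saline, withdrawal minus saline and withdrawal minus cocaine; filled points have lanes that do not overlap, the shaded band is the interquartile range of all compared genes, and dotted lines mark 1.5 times. No point reaches a dotted line, hnRNP points lie mostly left of 0 in the panels against saline, and most points of the right panel are open.

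RBFOX genes, whose proteins bind the same GCATG element and have overlapping targets, did not all differ from saline in the same direction. Rbfox3 had 79.1, 77.7 and 76.8 RPKM in the cocaine lanes, 84.0, 83.4 and 76.9 RPKM in the withdrawal lanes, and 101.3, 106.8 and 103.9 RPKM in the saline lanes, a difference of -0.41 ± 0.03 in cocaine and -0.35 ± 0.05 in withdrawal. Rbfox2, which unlike Rbfox3 is also active outside neurons, had 57.2, 57.0 and 58.3 RPKM in the cocaine lanes, 56.0, 59.1 and 56.9 RPKM in the withdrawal lanes, and 46.1, 49.9 and 48.0 RPKM in the saline lanes. Its differences were 0.26 ± 0.03 in cocaine and 0.25 ± 0.04 in withdrawal, and for both genes no lane of cocaine or withdrawal overlapped saline, as deposited and after length centring (Rbfox3 -0.43 and -0.36, Rbfox2 0.13 and 0.13 in cocaine and withdrawal). With equal sums Rbfox3 was at -0.25 in cocaine and -0.18 in withdrawal and Rbfox2 at 0.42 in both. Rbfox1 had 57.3, 54.8 and 56.0 RPKM in the cocaine lanes, 47.9, 54.9 and 53.4 RPKM in the withdrawal lanes, and 65.4, 57.8 and 58.4 RPKM in the saline lanes, or -0.11 ± 0.06 in cocaine and -0.22 ± 0.08 in withdrawal; with equal sums its cocaine difference was 0.05.

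Ratios within a lane are free of the scaling of that lane. The 5 pairs given here were chosen after the levels had been seen, so they are a description. The ratio of Rbfox2 to Rbfox3 was 0.723, 0.735 and 0.759 in the cocaine lanes, 0.667, 0.708 and 0.741 in the withdrawal lanes, and 0.456, 0.467 and 0.463 in the saline lanes, and all cocaine and withdrawal lanes lay above all saline lanes. The ratio was 1.59 times the saline value in cocaine and 1.52 times in withdrawal, or 0.67 in cocaine and 0.60 in withdrawal on the log2 scale, and 0.55 in cocaine and 0.49 in withdrawal after length centring. Between withdrawal and cocaine it overlapped. Rbfox2 to Rbfox1 was 1.03 ± 0.025 in cocaine, 1.10 ± 0.057 in withdrawal and 0.797 ± 0.082 in saline (SD, 3 lanes).

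Ptbp2 to Ptbp1, the neuronal over the more widespread polypyrimidine tract binding protein, was 0.986, 1.12 and 1.10 in the cocaine lanes, 1.12, 0.933 and 0.933 in the withdrawal lanes, and 1.253, 1.306 and 1.529 in the saline lanes. All cocaine and withdrawal lanes were below all saline lanes. Ptbp1 itself had 15.7, 14.5 and 13.7 RPKM in the cocaine lanes, 14.7, 14.3 and 14.1 RPKM in the withdrawal lanes, and 13.6, 12.8 and 10.9 RPKM in the saline lanes, a difference of 0.23 ± 0.11 in cocaine and 0.21 ± 0.10 in withdrawal, and Ptbp2 differed by -0.10 ± 0.03 in cocaine and -0.23 ± 0.10 in withdrawal. The highest Ptbp1 saline lane and the lowest cocaine lane were close.

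Nova2 to Nova1 was 1.76, 1.59 and 1.74 in the cocaine lanes, 1.91, 1.98 and 2.09 in the withdrawal lanes, and 1.41, 1.73 and 1.32 in the saline lanes. Withdrawal lay above both other libraries, and cocaine overlapped saline. Nova1 had lower lanes than saline in cocaine (-0.19 ± 0.05) and in withdrawal (-0.28 ± 0.09), and Nova2 overlapped saline in both (0.14 ± 0.07 in withdrawal).

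**Figure D4:**
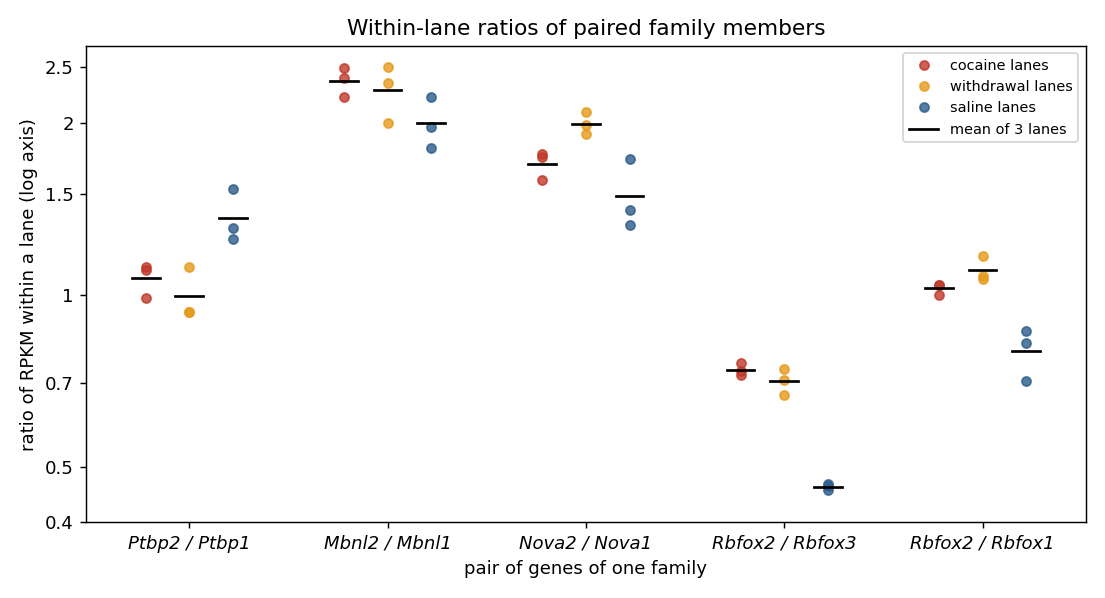
Ratio of RPKM of 2 genes of a family within each lane (points, log axis) and the mean of 3 lanes (bars), for cocaine, withdrawal and saline from left to right in each pair. Rbfox2 / Rbfox3 lies at 0.667 to 0.759 in the cocaine and withdrawal lanes and at 0.456 to 0.467 in the saline lanes, the widest separation of the 5 pairs.

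Both MBNL genes at 1 RPKM or more, whose proteins promote adult patterns of splicing, were higher in cocaine than in saline as deposited. Mbnl2 had 23.7, 22.7 and 21.6 RPKM in the cocaine lanes, 22.9, 19.7 and 20.1 RPKM in the withdrawal lanes, and 16.6, 15.9 and 15.7 RPKM in the saline lanes. No lane overlapped saline, and the differences of 0.48 ± 0.04 in cocaine and 0.36 ± 0.07 in withdrawal were 0.27 and 0.16 after length centring, with lanes still apart; with equal sums the cocaine difference was 0.64, which passed the size limit. Mbnl1 had 9.55, 9.46 and 9.74 RPKM in the cocaine lanes, 9.15, 9.85 and 8.56 RPKM in the withdrawal lanes, and 8.45, 7.18 and 8.71 RPKM in the saline lanes, and its differences of 0.23 ± 0.08 in cocaine and 0.17 ± 0.10 in withdrawal were 0.02 and -0.03 after length centring. The ratio of Mbnl2 to Mbnl1 was 2.37 ± 0.14 in cocaine, 2.28 ± 0.26 in withdrawal and 2.00 ± 0.21 in saline, where the lowest cocaine lane (2.219) and the highest saline lane (2.217) nearly met.

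Shown for comparison with the hnRNP promoters, since Mbnl2 and Rbfox3 had the highest and lowest cocaine differences of the 46 genes, are their 100 bases before the start, at chr14:120275569-120275668 (plus strand) and chr11:118761042-118761141 (minus strand) of GRCm38.p6, with matches to the same motifs in capitals.
Mbnl2: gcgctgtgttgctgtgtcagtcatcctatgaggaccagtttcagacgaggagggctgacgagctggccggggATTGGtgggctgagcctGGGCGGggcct
Rbfox3: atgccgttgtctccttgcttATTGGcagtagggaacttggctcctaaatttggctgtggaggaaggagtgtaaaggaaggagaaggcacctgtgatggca
Each holds the CCAAT box on the other strand, as ATTGG, and the Mbnl2 window also holds a GC box.

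CELF genes, whose proteins oppose MBNL proteins at some exons, lay on both sides of saline. Celf3 had 63.2, 56.1 and 54.4 RPKM in the cocaine lanes, 72.3, 65.8 and 61.5 RPKM in the withdrawal lanes, and 51.2, 48.3 and 46.5 RPKM in the saline lanes. Cocaine and withdrawal lanes were all above saline, by 0.25 ± 0.08 in cocaine and 0.45 ± 0.08 in withdrawal, and by 0.31 and 0.51 after length centring; with equal sums the withdrawal difference was 0.61, which passed the size limit. Celf2 had 64.67, 66.03 and 60.55 RPKM in the cocaine lanes, 63.7, 58.8 and 62.3 RPKM in the withdrawal lanes, and 77.4, 75.8 and 79.2 RPKM in the saline lanes.

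The Celf2 differences were -0.28 ± 0.04 in cocaine and -0.33 ± 0.04 in withdrawal. Its gene model is the longest of all members (15176 bp), and the median of genes of like length was above saline, so that after length centring it stood at -0.58 in cocaine and, past the size limit, at -0.61 in withdrawal. Celf4 had 112.2, 110.7 and 109.5 RPKM in the cocaine lanes, 124.7, 107.9 and 116.2 RPKM in the withdrawal lanes, and 123.8, 124.6 and 121.9 RPKM in the saline lanes. Cocaine was below saline (-0.15 ± 0.01), withdrawal overlapped both, and with equal sums the cocaine difference was 0.01.

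The last comparison asks what differed between 24 h and 8 days after daily cocaine. Withdrawal and cocaine were close: none of the 46 members was called, where 0.47% of all compared genes were called higher and 0.548% lower. Lanes were apart for 3 members that were higher in withdrawal, against 8.66% of genes, and for 4 that were lower, against 9.42%, which are shares near those of all genes. The median difference of the members was -0.03, and rho with gene model length was 0.01 over all genes.

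The members with withdrawal lanes below cocaine lanes were Srsf1 (-0.23 ± 0.06), Srsf2 (-0.19 ± 0.06), Hnrnpk (-0.09 ± 0.03) and Hnrnpa2b1 (-0.05 ± 0.02). Those above were Nova2 (0.14 ± 0.06), Celf5 (0.13 ± 0.03) and Celf1 (0.11 ± 0.05). Nova2 had 19.6, 19.2 and 17.8 RPKM in the withdrawal lanes and 17.5, 16.0 and 17.7 RPKM in the cocaine lanes, so that the nearest lanes almost touched. The largest difference in size belonged to Srsf10 (-0.30 ± 0.14), whose lanes overlapped.

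Other genes of the splicing machinery were taken from lists of SR-related proteins, SR protein kinases, other splicing regulators and core spliceosome components. In cocaine, lanes lay below saline for 5 of 17 SR-related genes and 4 of 9 kinases. They did so for 15 of 32 other regulators and 18 of 37 core spliceosome genes, beside 23.9% of all genes. Lanes above saline numbered 5, 0, 3 and 6, in that order, beside 18.3%. In withdrawal the counts were 7, 5, 16 and 16 below, beside 25.6%, and 4, 0, 4 and 4 above, beside 18.6%. After length centring 3, 4, 14 and 11 lay below in cocaine, beside 16.3%. In withdrawal 5, 5, 15 and 7 then did, beside 18.0%. Of 17 SR-related genes, 1 was called higher (2.93% of all genes in cocaine and 3.96% in withdrawal) and none lower against saline in both comparisons: Srrm2, a scaffold of nuclear speckles, at 73.2 ± 2.0 RPKM in cocaine, 82.4 ± 3.2 RPKM in withdrawal and 48.6 ± 0.85 RPKM in saline (SD, 3 lanes), or 0.59 in cocaine and 0.76 in withdrawal, which were 0.38 in cocaine and 0.55 in withdrawal after length centring and no longer called. None of the 9 kinases was called. Srpk1, Clk1 and Clk4, which phosphorylate SR proteins, had lanes below saline by -0.35, -0.29 and -0.32 in cocaine. Their withdrawal differences were -0.28, -0.52 and -0.44, also with lanes below saline. Differences of 4 of the 9 kinases were above 0 in cocaine and of 2 in withdrawal, with lanes overlapping. After length centring the withdrawal difference of Clk1 was -0.59, which made it the 1 kinase called lower. On that scale 176 of the 14051 compared genes were called lower in withdrawal.

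Of 37 core spliceosome genes, 2 were called lower in cocaine and 3 in withdrawal, beside 2.41% of all genes in cocaine and 3.37% in withdrawal. These were genes of the small Sm proteins that ring the snRNAs: Snrpg (17.5 ± 1.8 RPKM in cocaine, 23.9 ± 3.2 RPKM in withdrawal and 35.5 ± 1.4 RPKM in saline; -1.0 in cocaine) and Snrpd2 (63.4 ± 2.3 RPKM in cocaine, 64.0 ± 7.6 RPKM in withdrawal and 97.5 ± 7.7 RPKM in saline; -0.61 in both) in cocaine, and Snrpe (-0.74), Snrpd1 (-0.71) and Snrpd2 in withdrawal. After length centring 1 was called lower in cocaine and none in withdrawal. On that scale 98 of the 14051 compared genes were called lower in cocaine and 176 in withdrawal. Of 32 other regulators, Elavl4, a neuronal RNA-binding protein, was the 1 called gene, lower in withdrawal at 20.4 ± 2.1 RPKM against 31.0 ± 1.5 RPKM in saline (-0.59), with 27.1 ± 0.42 RPKM in cocaine. After length centring 2 of these regulators were called lower in withdrawal, Elavl4 (-0.63) and Rbm25 (-0.64), beside 176 of the 14051 compared genes.

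Marker genes of the cells in the tissue also differed between the libraries. The 9 markers of medium spiny neurons, all measured, summed to 1391 to 1472 RPKM in the cocaine lanes, 1677 to 1695 RPKM in the withdrawal lanes and 1932 to 2026 RPKM in the saline lanes. Penk and Ppp1r1b held most of the saline sum, at 1018 and 655 RPKM. By gene, 8 of these 9 markers were below saline in cocaine and 1 above, with a median difference of -0.33. In withdrawal 5 were below saline and 4 above, with a median difference of -0.01. The 4 endothelial markers summed to 47.9 to 51.9 RPKM in the cocaine lanes, 53.6 to 64.1 RPKM in the withdrawal lanes and 35.1 to 37.1 RPKM in the saline lanes, and the 4 cortical projection neuron markers to 7.99 to 10.4 RPKM in the cocaine lanes, 5.80 to 7.32 RPKM in the withdrawal lanes and 20.6 to 23.5 RPKM in the saline lanes. Oligodendrocyte markers summed to 1351 to 1393 RPKM in cocaine, 1317 to 1328 RPKM in withdrawal and 1470 to 1477 RPKM in saline, while the sum of the 4 astrocyte markers had a lane mean of 141 RPKM in cocaine, 131 RPKM in withdrawal and 132 RPKM in saline, and that of the 4 microglia markers 53.4 RPKM in cocaine, 53.9 RPKM in withdrawal and 55.8 RPKM in saline. The sum of the 4 choroid plexus markers had a lane mean of 14.2 RPKM in cocaine, 7.65 RPKM in withdrawal and 8.46 RPKM in saline, and of these Ttr had 7.51 RPKM in cocaine, 0.949 RPKM in withdrawal and 2.37 RPKM in saline. No marker was at 0 in a library. The part of these differences in those of the splicing factors, Rbfox3 and Ptbp1 among them, was not tested.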

How the data were processed

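Poly(A) RNA libraries, 1 per group, were run in 3 lanes each, giving 9 samples. The authors deposited RPKM per lane and per library, with a total for each, per the file headers. Alignment with Bowtie 0.12.7 to mm9 is listed per the submitters' processing notes. The counting tool and gene annotation are not given in the sources used here. Gene model lengths were recovered as the smallest length that made RPKM times lane total a whole multiple of 1/37 of a read. For 14 compared genes this length was multiplied by 37, to fit the reference exon length or because it was under 37 bp. Differences are between means over lanes of log2(RPKM + 0.5), a scale on which changes of low genes are understated; 14051 genes at 1 RPKM or more were compared. Lane totals ran from 5546362 to 12026754, so 1 read in 2000 bp was worth 0.0416 to 0.0902 RPKM. The call rule was tested on simulated data. Scripts used Python 3.11.15, numpy 2.4.6 and pandas 2.3.3. Promoters are from RefSeq, matched for 42 of the 46 genes.

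Named genes were those with the 4 largest and 4 smallest differences of each comparison, the highest of each family, and a list of well-studied members. Srsf9, Hnrpll, Hnrnpa0, Hnrnpu, Hnrnpul1, Hnrnpul2, Celf1, Celf2, Celf5, Srpk1, Clk1, Clk4, Rbm25, Penk, Ppp1r1b and Ttr lie outside that rule and were named after their values were seen. Members and lists were chosen with earlier results of these data known.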

Additional observations from a re-analysis of the deposited data

How the results depend on the processing

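No library was replicated, so these alternatives bear on sequencing and scaling alone. No member was called under pseudocounts of 0.1 and 1, a filter of 5 or 20 RPKM or none, a limit of 2 times, no condition on the lanes, median centring, GC centring, 75th percentile scaling, the composite values, or without any 1 lane. At a size limit of 25%, 1 member was called higher and 5 lower in cocaine against saline, 2 higher and 13 lower in withdrawal against saline, and none in withdrawal against cocaine, beside shares of all genes of 9.78% higher and 12.1% lower, 11.1% higher and 15.2% lower, and 2.23% higher and 2.42% lower in these comparisons. With equal summed RPKM, added after seeing the data, 1 was called higher in cocaine (Mbnl2) and 1 in withdrawal (Celf3). The shares of all genes called higher were then 6.12% in cocaine and 7.94% in withdrawal. With lanes apart, 12 were higher and 8 lower in cocaine, beside 32.2% and 10.1% of all genes. In withdrawal 13 were higher and 12 lower, beside 32.1% and 11.9%. The medians were -0.007 in cocaine and -0.049 in withdrawal. Length centring called 1 lower in withdrawal against saline (Celf2), with the 20 RPKM limit too. Of all compared genes, 176 of 14051 were then called lower, and 17 of 3895 with the 20 RPKM limit. Scaling to the 75th percentile gave a cocaine median of -0.097. In withdrawal it gave 11 members higher and 15 lower, beside 23.6% and 19.0% of all genes. GC centring gave 16 lower in withdrawal, beside 20.3% of all genes. At 20 RPKM or more, 36 members were left. Of these 2 were higher in cocaine and 4 in withdrawal, beside 15.1% and 16.5% of such genes. With length centring as well, 3 were higher in cocaine and 4 in withdrawal, beside 20.5% and 22.7%. In withdrawal against cocaine, GC centring gave 6 higher and 2 lower, beside 8.2% and 7.73% of all genes. Beyond these, the cause was not tested.

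Lane numbers did not pair the lanes: deviations of same-numbered lanes correlated between -0.051 and 0.076. With the lane number as a replicate block, in place of no overlap, 7 members were higher and 8 lower in withdrawal against cocaine. The shares of all genes were then 16.9% higher and 18.8% lower. No member was called in any comparison with that block. Without 1 lane at a time, 3 to 7 members were higher and 6 to 11 lower in withdrawal against cocaine. The shares of all genes were then 12.1% to 14.2% higher and 13.7% to 15.1% lower. The count of 11 lower came without withdrawal lane 1, and that of 7 higher without withdrawal lane 2. Of 1734 values of the 27 named members under alternatives, 18 became calls and 18 changed sign by more than the lane spread.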
